A study of Mus musculus with 6 samples.

Results

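C-low-threshold mechanoreceptors (C-LTMRs) are sensory neurons with unmyelinated axons that end around hair follicles and respond to gentle, slow touch of hairy skin. Their cell bodies lie in the dorsal root ganglia, the clusters of sensory neurons beside the spinal cord. A set of genes serves as their markers, of which 6 are described here: Th, Slc17a8, Fam19a4 (named Tafa4 in RefSeq), Zfp521, Cdh9 and P2ry1. The genes were chosen by name as C-LTMR markers, and each matched 1 row of the 54532 gene rows in the table of normalised counts. All 6 passed the filter on low values and were tested among 18410 genes.

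The ganglia came from C57BL/6 mice aged 8 weeks. The Hdac2 conditional knockout (Hdac2 cKO, 3 libraries) carried Adv-Cre, Cre recombinase driven by Advillin regulatory sequence, which is active in primary sensory neurons, and floxed Hdac2, given in the labels as hdac2-flop++. The controls (WT, 3 libraries) were littermates with the same floxed Hdac2 and no Cre, so the floxed alleles were common to both groups, while Cre was present in the knockout alone, without a Cre-only group beside it. Bulk RNA-seq was made from whole ganglia. Whether each library is 1 mouse or a pool is not stated, so a p-value here reflects spread among libraries, which may be technical.

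C-LTMR markers cover distinct jobs in the neuron. Th encodes tyrosine hydroxylase, the rate-limiting enzyme of catecholamine synthesis. Slc17a8 encodes VGLUT3, which loads glutamate into vesicles. Fam19a4 encodes TAFA4, a small secreted protein that dampens mechanical hypersensitivity after injury in mice. P2ry1 encodes a G protein-coupled receptor for ADP. Cdh9 encodes a type II cadherin, a cell adhesion protein, and Zfp521 a zinc finger transcription factor. None of these jobs is unique to C-LTMRs, and Th is also a defining gene of sympathetic neurons.

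Sequence upstream of the RefSeq start is shown for Th, P2ry1 and Fam19a4, the 3 markers with the highest level per transcript length in each library. The 250 bases before the start are given 5′ to 3′ on the strand of the gene (RefSeq, GRCm38.p6), with capitals marking a motif found in them. They lie at chr7:142899996-142900245 on the minus strand for Th, chr3:61002535-61002784 on the plus strand for P2ry1 and chr6:97060412-97060661 on the minus strand for Fam19a4.
Th: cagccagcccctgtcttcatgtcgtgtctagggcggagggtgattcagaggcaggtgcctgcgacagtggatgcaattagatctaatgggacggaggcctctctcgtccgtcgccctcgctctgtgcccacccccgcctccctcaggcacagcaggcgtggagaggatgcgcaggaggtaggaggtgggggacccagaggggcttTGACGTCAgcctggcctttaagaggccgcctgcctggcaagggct
P2ry1: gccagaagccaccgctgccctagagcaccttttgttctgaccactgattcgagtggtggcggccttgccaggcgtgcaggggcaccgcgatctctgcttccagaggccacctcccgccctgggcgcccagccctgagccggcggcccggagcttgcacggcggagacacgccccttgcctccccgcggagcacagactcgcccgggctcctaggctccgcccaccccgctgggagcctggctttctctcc
Fam19a4: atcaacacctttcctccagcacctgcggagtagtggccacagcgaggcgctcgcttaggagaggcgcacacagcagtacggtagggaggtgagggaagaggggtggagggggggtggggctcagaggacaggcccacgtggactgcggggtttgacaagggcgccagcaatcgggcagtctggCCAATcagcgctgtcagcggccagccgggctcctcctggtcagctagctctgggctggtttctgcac

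The motifs searched, on both strands, were the cAMP response element TGACGTCA, the RUNX forms TGTGGT and TGCGGT, and the CCAAT box. The cAMP response element of Th began 45 bases before the start, and 1.55% of 32851 promoter windows of the same length held one. A CCAAT box began 67 bases before the start of Fam19a4 and 74 before that of Cdh9, and 33.8% of windows held one. Upstream sequence of Zfp521 was not searched. Neither RUNX form, held by 14.05% and 5.10% of windows, was found in the windows printed. Guanine and cytosine made up 64.4% of the Th window, 70.8% of the P2ry1 window and 65.2% of the Fam19a4 window, against a median of 52.4% over all windows.

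Values are read counts divided by 1 size factor per library (normalised read counts). A fold change below is the Hdac2 cKO mean minus the WT mean of log2 (value + 1), and all tests were two-sided. Total reads assigned to genes ranged from 18943595 to 42070531 per library. Hdac2, the targeted gene, stood at 371.5 to 535.0 in Hdac2 cKO and 1715 to 3498 in WT. WT 3 stood apart: its median absolute log2 difference from the median of the other libraries was 0.81, against 0.23 to 0.37 for the other 5. WT 2 had the fewest reads, and 42.4% of its counts from 1 to 20 were even, against 60.2 to 64.4% elsewhere. Y-linked genes summed to 3993 in Hdac2 cKO 2, 3649 in WT 2 and 5698 in WT 3, taken as male, and to at most 7.06 in the other 3 libraries. The sensory ganglion genes Avil, Isl1, Pou4f1, Prrxl1 and Slc17a6 were all present, summing to 28036 to 31421 in Hdac2 cKO and 29364 to 35022 in WT. The sum mixes directions. Avil was lower without overlap, at 8201 to 10125 in Hdac2 cKO and 11996 to 17149 in WT, and Isl1 and Slc17a6 were higher without overlap.

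In these ganglia 4 of the 6 markers had a higher fitted level in Hdac2 cKO and 2 a lower one, and none passed. Cdh9 and P2ry1 stood higher in every Hdac2 cKO library than in any WT library. Th, Slc17a8, Fam19a4 and Zfp521 overlapped between groups. By limma 0 of the 6 passed at an adjusted p of 0.05, and 0% of the 18410 genes tested did. Hdac2, the targeted gene, had a log2 fold change of -2.47 (SE 0.31). It did not pass by limma (adjusted p = 0.927) and did by DESeq2 (adjusted p = 1.72e-08). A limma adjusted p of this size is therefore no sign that a gene was unchanged. At an unadjusted p under 0.05 limma counted 0 markers, against 1.85% of all genes. DESeq2 on the recovered reads called 0 markers and 0.152% of all genes, and with the replicate number as a block 0 markers and 0.429%. At its unadjusted p under 0.05 it counted 1 marker, P2ry1, against 3.63% of all genes. edgeR called 0 markers and 0% of all genes, and at an unadjusted p under 0.05 counted 0 markers against 2.12%.

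The unadjusted counts moved with the fit. P2ry1 had an unadjusted p under 0.05 by limma with the replicate block, as did 5.94% of all genes, among genes at 50 or more (1.75%) and with the length correction (1.84%). By DESeq2 with the replicate block 0 markers did, against 7.59% of all genes. Th and P2ry1 did by limma without both libraries numbered 3 (6.14%), Th without WT 3 (3.52%) and Cdh9 without WT 2 (1.62%). None of these passed after adjustment.

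Of the 6 markers 2 were without overlap and higher in Hdac2 cKO, as were 4.63% of all genes, and 0 were without overlap and lower, as were 3.91%. In either direction 8.54% of all genes were without overlap. The lists of sensory neuron genes given below also held genes higher without overlap. They were 5 of 12 pan-neuronal, 3 of 6 itch peptide, 2 of 5 sensory ganglion and 2 of 7 non-peptidergic nociceptor genes. Peptidergic nociceptor genes had 2 of 8, A-fibre genes 2 of 9 and the other C-LTMR genes 1 of 9. The sensory ganglion and A-fibre lists each held 1 gene lower without overlap. The median log2 fold change of the 6 markers was 0.26, against 0.06 over all genes tested, and without WT 3 it was 0.04, against -0.01 over all genes. Leaving out each other library in turn kept it at or below 0.45, the value without Hdac2 cKO 3.

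**Figure D1:**
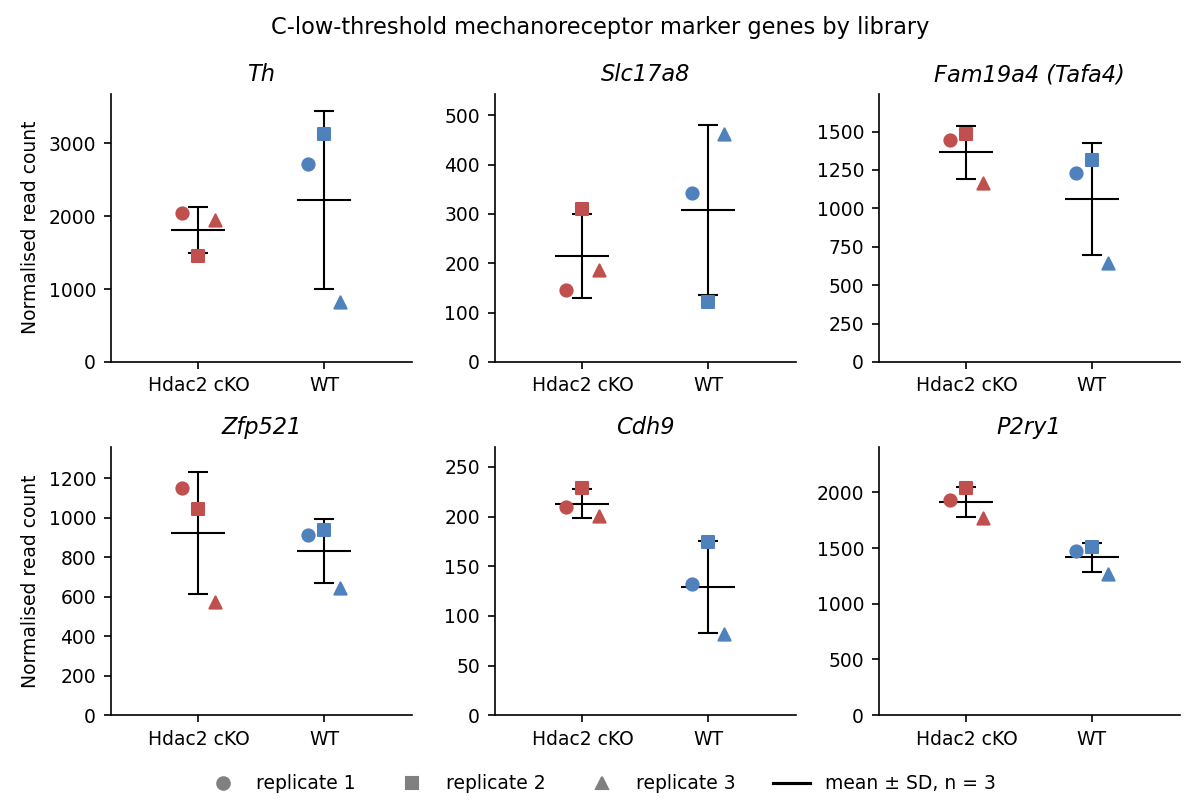
Normalised read counts of the 6 marker genes (vertical axes, linear, from 0) in Hdac2 cKO (left) and WT (right), 3 libraries each, with the mean and SD. Cdh9 and P2ry1 do not overlap between groups, and WT 3 (triangle) is the lowest WT library for each gene but Slc17a8.

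Th (ENSMUSG00000000214, mm10 chromosome 7, 142892752 to 142931128, minus strand) had 2045, 1456 and 1949 normalised read counts in Hdac2 cKO 1, 2 and 3, against 2715, 3122 and 826 in WT 1, 2 and 3. All 3 knockout libraries lay between the 2 high WT libraries and WT 3, so the groups overlapped. The means were 1816 ± 316 in Hdac2 cKO and 2221 ± 1225 in WT (SD, n = 3 each). The log2 fold change was -0.09 (SE 0.49), with a 95% interval from -1.25 to 1.07 and limma adjusted p = 0.974. Th read counts were 808 in WT 3 (exact 95% Poisson interval 753 to 866) and 3077 in WT 1 (2969 to 3188). By these intervals the spread within WT exceeded counting error, the only error they cover. They treat reads as independent. Of counts from 1 to 20, 60.2% in WT 3 and 63.2% in WT 1 were even, so the intervals may be too narrow. With WT 3 left out the log2 fold change was -0.70 (limma adjusted p = 0.998). Every knockout library was then below both WT libraries, as for 9.63% of all genes. Without WT 1 it was 0.16, without WT 2 0.26 and without Hdac2 cKO 2 0.06. In whole-ganglion RNA, fewer C-LTMRs and less of a transcript per C-LTMR cannot be told apart.

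Genes that define sympathetic neurons were set beside Th. Dbh, which turns dopamine into noradrenaline, was at most 1.40 in Hdac2 cKO and at most 4.47 in WT. Phox2a was at 0 in every library except WT 2, at 1.49, and Hand2 was at most 1.40 in Hdac2 cKO and 7.44 in WT. Slc18a2, the vesicular monoamine transporter, stood at 208 to 359 in Hdac2 cKO and 61.3 to 247 in WT. Slc6a2, the noradrenaline transporter, was at 0 to 20.2 in Hdac2 cKO and at 8.82, 8.93 and 73.6 in WT 1, 2 and 3, highest in the library with the least Th. The part of these genes in the Th values was not tested. Of the 8 sympathetic genes listed, only Slc18a2 and Npy passed the filter on low values. Both had a fold change above 0 (median 1.83, or 0.97 without WT 3), and neither passed limma's test. Npy, with a log2 fold change of 2.81 (SE 1.12), was near the floor, at 22.2 to 40.6 in Hdac2 cKO and 0 to 10.4 in WT. For Slc18a2 it was 0.85 (SE 0.55), with overlap.

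Of 15 genes for catecholamine synthesis and handling, 11 were tested, 8 with a fold change above 0 and 3 below, with a median of 0.27 (0.11 without WT 3), and 0 passed. The 2 with the lowest p, neither past the threshold, were Pcbd1, which recycles the cofactor of Th, and Maob, a monoamine oxidase. Pcbd1 stood at 1153 ± 99.9 in Hdac2 cKO and 836 ± 211 in WT, and Maob at 155 ± 18.3 in Hdac2 cKO and 100.3 ± 21.1 in WT (SD, n = 3 each). Both were without overlap (limma adjusted p = 0.927 each). Ddc, the enzyme after Th, was low, at 26.6 to 48.5 in Hdac2 cKO and 30.7 to 59.6 in WT.

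Slc17a8 (ENSMUSG00000019935, chromosome 10, 89574020 to 89621253, minus strand) had 147, 310 and 186 normalised read counts in Hdac2 cKO 1, 2 and 3, against 342, 122 and 461 in WT 1, 2 and 3. WT held both its lowest and its highest library, so the knockout range lay wholly within that of WT. The means were 214 ± 85.1 in Hdac2 cKO and 308 ± 172 in WT (SD, n = 3 each). The log2 fold change was -0.40 (SE 0.54), with a 95% interval from -1.67 to 0.88 and limma adjusted p = 0.927. It was -0.96 without WT 2, when every knockout library lay below both remaining WT libraries, as for 7.1% of all genes. It was -0.01 without WT 3. WT 3 was thus the highest library for Slc17a8 and the lowest for Th.

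Of the other vesicular glutamate transporters, Slc17a6 (VGLUT2) stood at 7229 ± 250.5 in Hdac2 cKO and 5270 ± 1280 in WT, and Slc17a7 (VGLUT1) at 3646 ± 396 in Hdac2 cKO and 5307 ± 2617 in WT (SD, n = 3 each). Slc17a6 had a log2 fold change of 0.48 (SE 0.22) without overlap and Slc17a7 one of -0.43 (SE 0.36) with overlap. Neither passed (limma adjusted p = 0.927 each), and the median of the pair was 0.03, with values from -0.22 without WT 3 to 0.19 without WT 2. The ratio of Slc17a8 to Slc17a6 counts within a library was 0.0201, 0.0416 and 0.0267 in Hdac2 cKO 1, 2 and 3 and 0.0510, 0.0253 and 0.108 in WT 1, 2 and 3, also with overlap.

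Fam19a4 (ENSMUSG00000046500, chromosome 6, 96831203 to 97060413, minus strand) had 1444, 1481 and 1168 normalised read counts in Hdac2 cKO 1, 2 and 3, against 1229, 1316 and 645 in WT 1, 2 and 3. The groups overlapped through Hdac2 cKO 3, which lay below WT 1 and WT 2, and WT 3 was the lowest of all. The means were 1364 ± 171 in Hdac2 cKO and 1063 ± 365 in WT (SD, n = 3 each). The log2 fold change was 0.42 (SE 0.31), with a 95% interval from -0.31 to 1.15 and limma adjusted p = 0.927. It was 0.09 without WT 3. Without Hdac2 cKO 3 the knockout libraries were all higher, as for 13.4% of all genes.

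The other 4 TAFA genes split evenly, with 2 fold changes above 0 and 2 below, a median of 0.13 (-0.12 without WT 3, 0.21 without WT 2) and 0 that passed. Fam19a1 was higher without overlap, at 946 ± 128 in Hdac2 cKO and 718 ± 29.4 in WT. Fam19a5 was lower without overlap, at 1308 ± 80.4 in Hdac2 cKO and 1884 ± 580 in WT (SD, n = 3 each; limma adjusted p = 0.927 for both).

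P2ry1 (ENSMUSG00000027765, chromosome 3, 61002795 to 61008982, plus strand) had 1928, 2041 and 1773 normalised read counts in Hdac2 cKO 1, 2 and 3, against 1474, 1510 and 1263 in WT 1, 2 and 3. The lowest knockout library lay above the highest WT library, and each group kept within a narrow range. The means were 1914 ± 135 in Hdac2 cKO and 1416 ± 133 in WT (SD, n = 3 each), a ratio of 1.35. The log2 fold change was 0.44 (SE 0.19), with a 95% interval from -0.005 to 0.88, or from 0.997 to 1.84 as a ratio. Adjusted over the 18410 genes it missed the threshold (limma adjusted p = 0.927, DESeq2 adjusted p = 0.992). An exact permutation test returned p = 0.1, which 3 libraries against 3 cannot go below. Leaving out any 1 library kept the log2 fold change between 0.36 and 0.49. The antisense gene Gm37035 shares 992 exonic bases with P2ry1 and stood at 3.50 to 30.5 in Hdac2 cKO and 0 to 32.8 in WT. As no source gives the strand setting of the counting, reads of the 2 genes may not be told apart.

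Of 6 other P2Y receptors 5 were tested, 3 with a fold change above 0 and 2 below, a median of 0.10 (-0.27 without WT 3, 0.043 without Hdac2 cKO 1) and 0 that passed. P2ry2, a receptor for ATP and UTP, was lower without overlap, at 439 ± 167 in Hdac2 cKO and 698 ± 52.3 in WT (log2 fold change -0.75, SE 0.33). P2ry12, an ADP receptor of resident macrophages, stood at 172 ± 69.9 in Hdac2 cKO and 121 ± 103 in WT (SD, n = 3 each). P2ry12 was at 12.3 in WT 3 and its groups overlapped (limma adjusted p = 0.927 for both genes).

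Cdh9 (ENSMUSG00000025370, chromosome 15, 16728756 to 16857094, plus strand) had 209, 229 and 201 normalised read counts in Hdac2 cKO 1, 2 and 3, against 132, 174 and 81.8 in WT 1, 2 and 3. The knockout libraries were close together and all above WT, whose libraries spread 2.13-fold. The means were 213 ± 14.5 in Hdac2 cKO and 129 ± 46.3 in WT (SD, n = 3 each), a ratio of 1.65. The log2 fold change was 0.78 (SE 0.36), with a 95% interval from -0.06 to 1.62. It missed the threshold (limma adjusted p = 0.927, DESeq2 adjusted p = 0.992), with p = 0.1 by exact permutation. Leaving WT 3 out gave 0.48, with each knockout library still the higher, as for 9.22% of all genes. The lowest read count of any marker was that of Cdh9 in WT 3, 80 reads. Its exact 95% Poisson interval ran from 63.4 to 99.6 and, as for Th, may be too narrow.

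Of 11 other type II cadherins, 8 had a fold change above 0 and 3 below, with a median of 0.37, or 0.04 without WT 3 and 0.59 without WT 1. None was without overlap and 0 passed. The 2 with the lowest p, neither past the threshold, were Cdh7, at 113 ± 39.2 in Hdac2 cKO and 69.8 ± 19.3 in WT, and Cdh11, at 3343 ± 352 in Hdac2 cKO and 2577 ± 803 in WT (SD, n = 3 each).

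Zfp521 (ENSMUSG00000024420, chromosome 18, 13687013 to 13972787, minus strand) had 1152, 1045 and 574 normalised read counts in Hdac2 cKO 1, 2 and 3, against 913, 940 and 645 in WT 1, 2 and 3. The libraries numbered 3 were the lowest of both groups, and the 2 high knockout libraries lay above WT 1 and WT 2. The means were 923 ± 308 in Hdac2 cKO and 833 ± 163 in WT (SD, n = 3 each). The log2 fold change was 0.11 (SE 0.32), with a 95% interval from -0.65 to 0.86 and limma adjusted p = 0.955. It was 0.42 without Hdac2 cKO 3 and -0.07 without WT 3, -0.08 without Hdac2 cKO 1 and -0.01 without Hdac2 cKO 2.

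Zfp423, its close paralog, and the EBF transcription factors, to which both proteins are known to bind, were listed beside it. Of these 5 genes 3 had a fold change above 0 and 2 below, with a median of 0.0005 (-0.23 without Hdac2 cKO 1, 0.17 without WT 1), and 0 passed. Ebf3 stood at 2456 ± 362 in Hdac2 cKO and 1802 ± 509 in WT, and Ebf4 at 389 ± 77.4 in Hdac2 cKO and 549 ± 156 in WT (SD, n = 3 each), both with overlap.

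**Figure D2:**
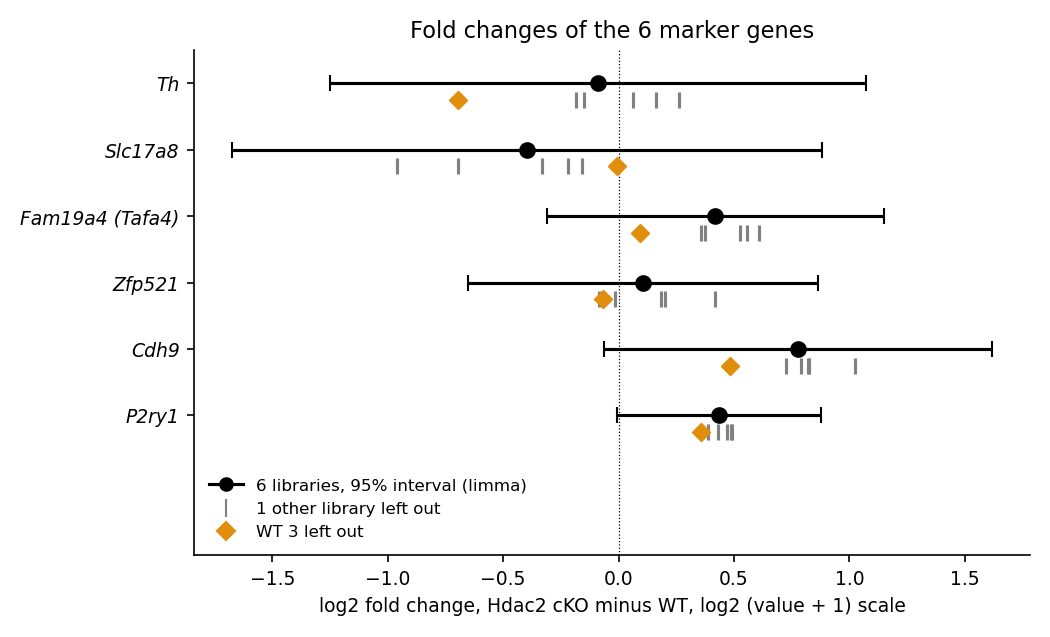
Log2 fold changes of the 6 marker genes (horizontal axis, Hdac2 cKO minus WT), with the limma 95% interval for all 6 libraries (black) and the values with 1 library left out (grey bars, and orange diamonds for WT 3). Every interval includes 0, and the values for P2ry1 stay between 0.36 and 0.49 while those for Th run from -0.70 to 0.26.

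Scaled to annotated exon length and to the reads assigned in the library (RPKM), the order of the markers was the same at the top in every library: Th, then P2ry1, then Fam19a4. In Hdac2 cKO the RPKM levels were 26.9 ± 4.50 for Th, 15.7 ± 1.50 for P2ry1, 8.43 ± 1.27 for Fam19a4, 4.64 ± 1.64 for Zfp521, 2.11 ± 0.192 for Cdh9 and 1.60 ± 0.658 for Slc17a8 (SD, n = 3). Neighbours in this order did not overlap, except Cdh9 and Slc17a8, with Slc17a8 at 1.11 to 2.34 and Cdh9 at 1.93 to 2.31. In WT they were 33.4 ± 18.9 for Th, 11.6 ± 1.47 for P2ry1, 6.60 ± 2.43 for Fam19a4, 4.17 ± 0.944 for Zfp521, 2.27 ± 1.22 for Slc17a8 and 1.29 ± 0.487 for Cdh9 (SD, n = 3). In WT only P2ry1 and Fam19a4 were neighbours without overlap. Th per length was 11.7 in WT 3 against 41.5 and 46.8 in WT 1 and WT 2.

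The markers did not vary as a block across libraries. WT 3 was the lowest library for Th, Fam19a4, Cdh9 and P2ry1, WT 2 for Slc17a8 and Hdac2 cKO 3 for Zfp521. Hdac2 cKO 2 was the highest for Fam19a4, Cdh9 and P2ry1. Relative to each gene's own mean, the median of the markers was 0.27, 0.32 and 0.03 (log2) in Hdac2 cKO 1, 2 and 3 and 0.08, 0.12 and -0.63 in WT 1, 2 and 3. As a root mean square difference of these relative levels over the 6 libraries, Fam19a4 and Cdh9 were the most alike pair, at 0.21, and Th and Slc17a8 the least alike, at 1.21. The ratio of Th to P2ry1 counts within a library was 1.06, 0.713 and 1.10 in Hdac2 cKO 1, 2 and 3 and 1.84, 2.07 and 0.654 in WT 1, 2 and 3. In counts, not scaled to length, Th thus stood well above P2ry1 in WT 1 and WT 2, and below it in Hdac2 cKO 2 and WT 3. Scaled to length, Th stood above P2ry1 in every library.

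**Figure D3:**
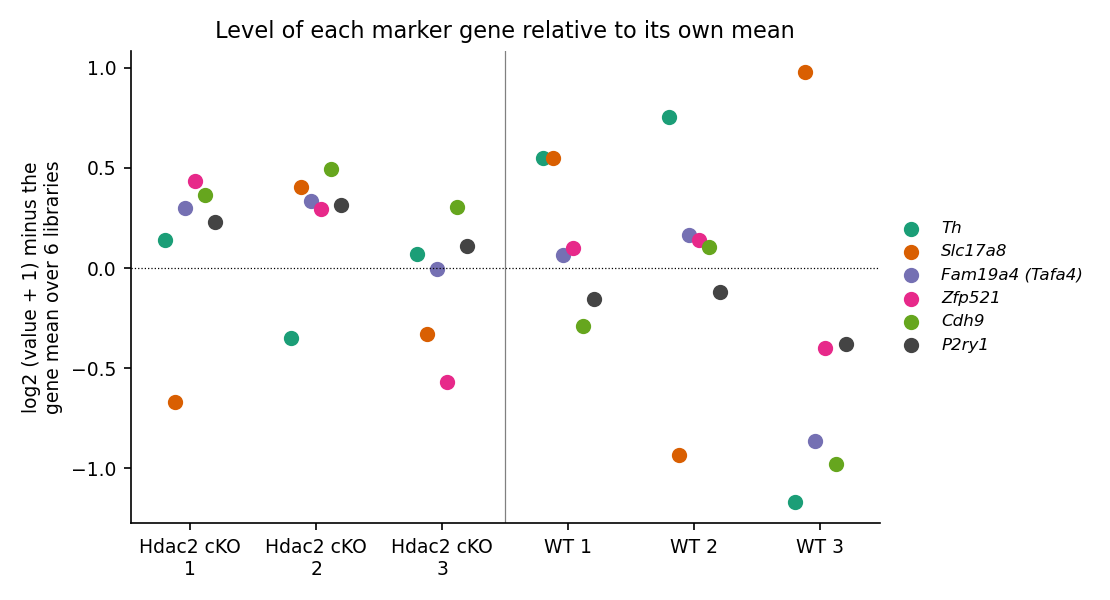
Level of each marker gene in each library, as log2 (value + 1) minus the mean of that gene over the 6 libraries (vertical axis), with Hdac2 cKO libraries left of WT libraries. In WT 3 all markers but Slc17a8 lie below their mean, and Slc17a8 lies 0.98 above it.

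The genes most like each marker by the same measure were found among the other 18409 genes tested. For Th they were 9430037G07Rik (0.08) and Whrn (0.14), for Slc17a8 F420014N23Rik (0.17) and Dnajb13 (0.19), and for Fam19a4 Slc36a1 (0.05) and Ninj1 (0.05). For P2ry1 they were Steap3 (0.05) and Kalrn (0.07), for Cdh9 Hnmt (0.10) and Gm14327 (0.12), and for Zfp521 Aifm2 (0.06) and Pcdhga4 (0.06). With 6 libraries and so many genes, close profiles are easily found. Whrn, which encodes the scaffold protein whirlin, stood at 710, 597 and 723 in Hdac2 cKO and 842, 1112 and 333 in WT, the order of libraries seen for Th except that Hdac2 cKO 3 was above Hdac2 cKO 1.

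A further 9 genes are known to be expressed in C-LTMRs, though not only there. They were Gfra2 and Ret (receptors for the growth factor neurturin), the transcription factors Runx1 and Pou4f2, the calcium channel gene Cacna1h, the mechanosensitive channel gene Piezo2, the sodium channel genes Scn10a and Scn11a, and the potassium channel gene Kcnd3. Of these 8 had a fold change above 0 and 1, Gfra2, below 0, with a median of 0.45, and 0 passed limma's test. Ret stood at 21021 ± 1332 in Hdac2 cKO and 14390 ± 5324 in WT (SD, n = 3 each), without overlap, with a log2 fold change of 0.63 (SE 0.32; limma adjusted p = 0.927). Runx1 stood at 2574 ± 324 in Hdac2 cKO and 1933 ± 568 in WT (SD, n = 3 each), with overlap (limma adjusted p = 0.927). Without WT 3, where the list stood 0.75 below its gene means, the median of the list was 0.17.

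Medians of other classes of sensory neuron were also above 0 with all libraries in the fit. Non-peptidergic nociceptor genes had 7 of 7 fold changes above 0 and a median of 0.66, or 0.20 without WT 3 and 1.00 without WT 1. Itch peptide genes had 4 of 6 above 0 and a median of 0.83, peptidergic nociceptor genes 6 of 8 and 0.27 (0.17 without WT 2), and genes of A-fibre low-threshold mechanoreceptors and proprioceptors 6 of 9 and 0.09 (0.0069 without WT 3, 0.18 without Hdac2 cKO 2). Pan-neuronal genes had 8 of 12 above 0 and a median of 0.24, and the 5 sensory ganglion genes 3 above 0 and a median of 0.30. Without Hdac2 cKO 3 the pan-neuronal median was 0.092 and that of the sensory ganglion genes 0.025, and that of the C-LTMR markers 0.45. The order turned without WT 3, with 0.19 for pan-neuronal genes, 0.35 for sensory ganglion genes and 0.04 for the C-LTMR markers. Peptidergic nociceptor genes were then at 0.36. No difference between lists was tested. Genes with the smallest p in their lists had these log2 fold changes, none past limma's threshold: 0.51 for Lpar3 (non-peptidergic), 0.59 for Trpv1 and 0.36 for Adcyap1 (peptidergic), -0.77 for Runx3 and 0.48 for Ntrk3 (A-fibre), and 0.40 for Elavl2 and 0.53 for Map2 (pan-neuronal). DESeq2 called 1 gene of these lists, Nts of the itch peptide list, at 1167 ± 804 in Hdac2 cKO and 261 ± 86.7 in WT (SD, n = 3 each; DESeq2 adjusted p = 0.0496). Myelinating Schwann cell genes had 9 of 10 fold changes below 0 and a median of -0.78, and satellite glia genes 8 of 10 and -0.28 (-0.16 without WT 3). Mag, a myelin glycoprotein, stood at 831 ± 78.9 in Hdac2 cKO and 1466 ± 78.3 in WT (SD, n = 3 each; DESeq2 adjusted p = 0.0245). The part of these differences in glial and neuronal genes in the values of the markers was not tested.

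**Figure D4:**
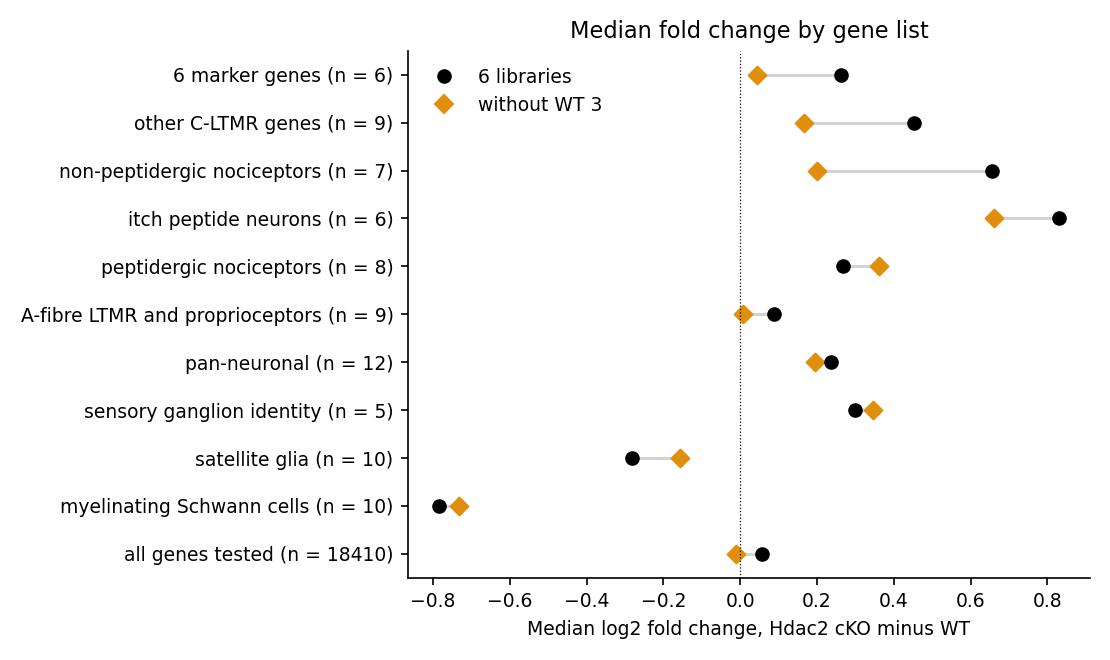
Median log2 fold change (horizontal axis, Hdac2 cKO minus WT) of each gene list over all 6 libraries (black) and without WT 3 (orange), with the number of genes tested. The 6 C-LTMR markers are at 0.26 with all libraries and 0.04 without WT 3, and all genes tested are at 0.06 and -0.01.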

How the data were processed

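Per the submitters' processing notes, the tools were HISAT2, SAMtools, featureCounts and DESeq2, and the build mm10. Tool versions, gene annotation and strandedness: not given in the sources used here. The deposited signal values are read counts divided by 1 factor per library: every value was a whole multiple of the smallest in its column (100% within a tolerance of 0.01), which gave the reads. Columns were matched to samples by name. Identifiers were matched to GENCODE release M21 (54495 of 54532), which gave symbols, positions and exon lengths.

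Genes that reached 10 in 3 or more libraries (18410) were fitted with limma 3.58.1 (trend, robust) on log2 (value + 1), with two-sided p-values, Benjamini-Hochberg adjustment and a threshold of 0.05. Fold changes of low genes are understated on this scale. DESeq2 1.42.0 and edgeR 4.0.16 (quasi-likelihood, TMM) on the recovered reads, other pseudocounts, filters and scalings, a replicate block, a sex term, a gene length correction and leaving out libraries were alternatives. The scripts were tested on simulated data. Poisson intervals cover counting error only and treat reads as independent.

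The markers, lists and tests were chosen with earlier results of these data known. Text names all markers, Hdac2, Avil, for most lists the genes that passed or the 2 with the smallest p, and the 2 most alike genes per marker. Dbh, Phox2a, Hand2, Slc6a2, Ddc and Gm37035 were added after their values were seen. Some listed genes are not reported here.

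Across genes, deviations from the group means correlated by 0.40, 0.15 and 0.42 for same-numbered libraries 1, 2 and 3. A pairing by number is thus possible but not shown. The reported fit, its intervals and the permutation tests are unpaired, and the replicate block was an alternative. Such a pairing would come from the data, not the labels, and Hdac2 cKO 2 correlated more with WT 1 (0.34) than with WT 2 (0.15). No 2 libraries agreed within sampling noise (chi-square per gene at least 17.3).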

Additional observations from a re-analysis of the deposited data

How the results depend on the processing

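No marker passed in any of the 19 alternatives. Leaving out 1 library at a time gave log2 fold changes from -0.70 to 0.26 for Th, -0.96 to -0.01 for Slc17a8, 0.09 to 0.61 for Fam19a4, -0.085 to 0.42 for Zfp521, 0.48 to 1.02 for Cdh9 and 0.36 to 0.49 for P2ry1. Fam19a4, Cdh9 and P2ry1 kept their direction in every alternative. Scaling to pan-neuronal genes moved the median of all genes by -0.14 and turned Zfp521 to -0.034; relative to all genes it stayed at 0.05. Without both libraries numbered 3, Slc17a8 turned to 0.058 and Th was -0.75. The cause was not tested.

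Over all genes limma called 0, DESeq2 28, DESeq2 with the replicate block 79, and limma without both libraries numbered 3 called 5. Of the listed genes other than the markers, DESeq2 called 7, and 15 with the replicate block. With the replicate block limma called 0 genes and gave P2ry1 an adjusted p of 0.674; the block changed no call of a marker. With 3 libraries a group, a spread as wide as that of Th within WT leaves intervals of over 1 log2 unit to each side.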

Other observations

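Lists of cell types other than neurons and glia were read in the same fit. Skeletal muscle genes had log2 fold changes below 0 for 11 of 11 tested (median -3.56), and DESeq2 called 5 of them lower; Des stood at 111 ± 32.1 in Hdac2 cKO and 468 ± 85.6 in WT, and Ttn at 79.8 ± 32.3 in Hdac2 cKO and 661 ± 293 in WT (SD, n = 3 each; limma adjusted p = 0.927 for both, DESeq2 adjusted p = 3.04e-05 for Des and 1.22e-05 for Ttn). Fibroblast genes were below 0 for 5 of 6, with a median of -0.49 (-0.046 without Hdac2 cKO 3), macrophage genes above 0 for 5 of 8, with a median of 0.37, and endothelial and mural genes above 0 for 5 of 8, with a median of 0.17. The macrophage median was -0.16 and the endothelial and mural median -0.23 without WT 3, and 0.83 and 0.39 without WT 1. Y-linked genes were below 0 for 4 of 4, with a median of -3.74, which ran from -6.93 without Hdac2 cKO 2 to -2.14 without Hdac2 cKO 1. Their summed level was 3993 in Hdac2 cKO 2 and 0 in Hdac2 cKO 1 and 3, against 7.06, 3649 and 5698 in WT 1, 2 and 3. Avil, whose regulatory sequence drives Cre, stood at 9231 ± 969 in Hdac2 cKO and 14943 ± 2655 in WT (SD, n = 3 each), without overlap, with a log2 fold change of -0.68 (SE 0.21; limma adjusted p = 0.927).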
